A study of Mus musculus with 4 samples.

Results

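The proteasome genes described here are the rows of the count table whose symbol is Psm, a letter from a to g and digits alone, without Psmb8 and Psmb9. Of 46 such rows, 44 had at least 40 reads summed over the 4 libraries and form the set, out of 53465 gene rows in all. The smallest member was Psmg4 with 2074 reads. The rows left out by the minimum were Psmb11, a thymus-specific core subunit, with 5 reads, and Psma8, a testis-specific core subunit, with 0. All 44 members also passed the filter on low counts and were tested.

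The study sequenced poly(A) RNA of B16 cells, a mouse melanoma line, after 4 h with EM-plasma (2 libraries), which the labels describe as plasma treated with exosome-mimetic nanovesicles, and of control B16 cells (2 libraries). The nature of the plasma, any mock treatment of the controls and the time at which the controls were collected are not stated in the labels. They also do not state that the 2 libraries of a group are separate cultures, so the replicate spread behind each p-value may be technical. The libraries held 46295133 and 46557637 reads in EM-plasma-treated cells and 49367932 and 47664388 reads in controls. The series title places the work in Golgi stress and ferroptosis. The 7 melanocyte lineage markers checked were all present, with summed levels of 11207 and 11327 CPM (counts scaled to the library total) in EM-plasma libraries and 10957 and 11005 CPM in controls. Of 17 markers of leukocytes, blood cells, endothelium, epithelium, fibroblasts and liver, 9 had 0 reads in every library, Ptprc, Epcam, Cdh5 and Alb among them, and 3 reached 40 reads in all, Cd68, Col1a1 and Pdgfra. Their summed level was 7.80 and 7.47 CPM in EM-plasma libraries and 6.18 and 5.83 CPM in controls, and its part in the results was not tested. In RNA of whole cultures, fewer cells of a kind and less RNA per cell cannot be told apart.

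The proteasome degrades proteins that carry ubiquitin chains and is the main route of selective protein breakdown in the cytosol and nucleus. Its core particle is a barrel of alpha and beta rings, in which a few beta subunits cut the peptide chain. A regulatory particle binds the end of the barrel, recognises ubiquitin, unfolds the substrate with a ring of ATPases and feeds it in, and other caps (the PA28 and PA200 activators) can take its place. In mammals the transcription factor NRF1, encoded by Nfe2l1, raises proteasome subunit genes together when proteasome activity is limiting, NRF2 also acts on several of them, and interferon exchanges the cutting subunits for immunoproteasome forms.

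Promoter sequence is shown for 3 core genes: Psmb10, which passed the test of difference, and Psmb5 and Psmb6, which encode cutting subunits and carry the letters of an antioxidant response element, the site NRF1 and NRF2 bind. Each is 120 bases of the RefSeq promoter table on GRCm38.p6, read 5′ to 3′ along the gene's strand and ending before both the RefSeq and the GENCODE start of the gene. They lie at chr8:105938445-105938564 on the minus strand (Psmb10), chr14:54618023-54618142 on the minus strand (Psmb5) and chr11:70525237-70525356 on the plus strand (Psmb6). Capitals mark matches to TGACNNNGC.
Psmb10: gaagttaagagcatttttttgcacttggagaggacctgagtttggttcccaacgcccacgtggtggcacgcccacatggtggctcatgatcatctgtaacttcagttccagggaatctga
Psmb5: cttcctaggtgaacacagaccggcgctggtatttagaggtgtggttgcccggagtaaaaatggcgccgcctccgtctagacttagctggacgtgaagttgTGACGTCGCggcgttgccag
Psmb6: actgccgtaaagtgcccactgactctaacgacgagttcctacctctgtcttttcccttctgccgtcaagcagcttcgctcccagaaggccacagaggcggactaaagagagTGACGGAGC

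After 4 h with EM-plasma, 1 of the 44 proteasome genes was higher than in controls, Psmb10, and 0 were lower. Over all 13664 genes tested, 6.21% were called, 3.34% higher and 2.88% lower (adjusted p below 0.05 in edgeR's quasi-likelihood test). The median log2 fold change of the 44 members was -0.0057, beside -0.0027 over all genes tested. The members fell on both sides of 0, 21 above and 23 below. The median absolute log2 fold change was 0.035 over the members and 0.090 over all genes tested. The members were also more abundant, with a median level of 142 CPM against 31.1 CPM (CPM after TMM normalisation). At an unadjusted p below 0.05 there were 4 members, beside 19.5% of all genes tested. DESeq2 called 0 members in either direction and limma voom 1 higher and 0 lower.

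The members' reads made up 0.700% and 0.712% of the total count in EM-plasma libraries and 0.694% and 0.705% in controls. In the values that follow, CPM is the count scaled to the library total after TMM normalisation. Summed over the 44 members the level was 7037 ± 120 CPM in EM-plasma libraries and 7027 ± 91.2 CPM in controls (SD, n = 2 each), so that the EM-plasma sum was 100.1% of the control sum. The difference between the group sums was smaller than the SD within either group. The 95% interval of the fold change lay inside 1.2-fold in both directions for 43 of 44 members, the exception being Psmb10, and inside 1.1-fold for 20. The same held for 52.8% and 11.4% of all genes tested. These shares were not matched for abundance. The median standard error of the log2 fold change was 0.050 over the members and 0.070 over all genes tested. Each interval is for 1 gene and was not widened for the number of genes. Its width rests largely on a variance estimated over other genes, not on the member's own replicate spread.

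**Figure D1:**
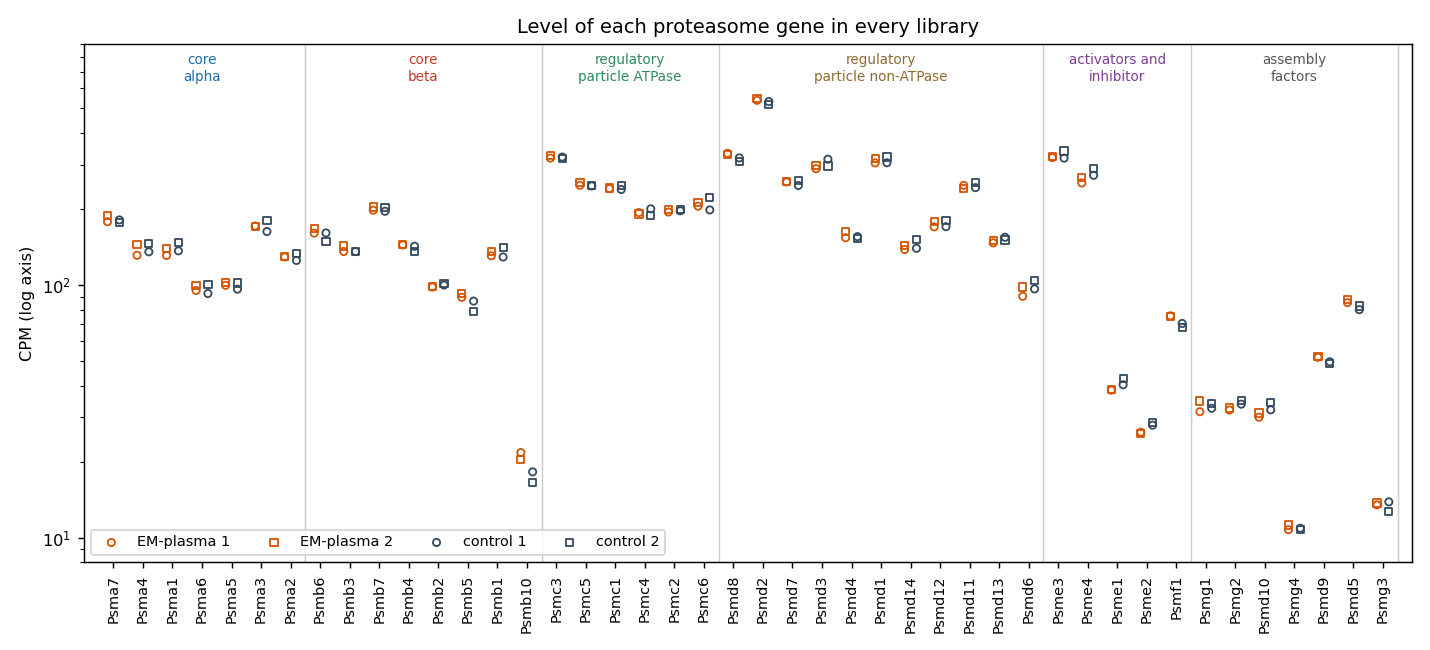
Level of each of the 44 proteasome genes in CPM on a log axis, by role, with EM-plasma libraries (orange, left) and control libraries (dark, right) as separate symbols. The members span 10.8 CPM for Psmg4 to 550 CPM for Psmd2, and the summed level is 7037 CPM with EM-plasma and 7027 CPM in controls.

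**Figure D2:**
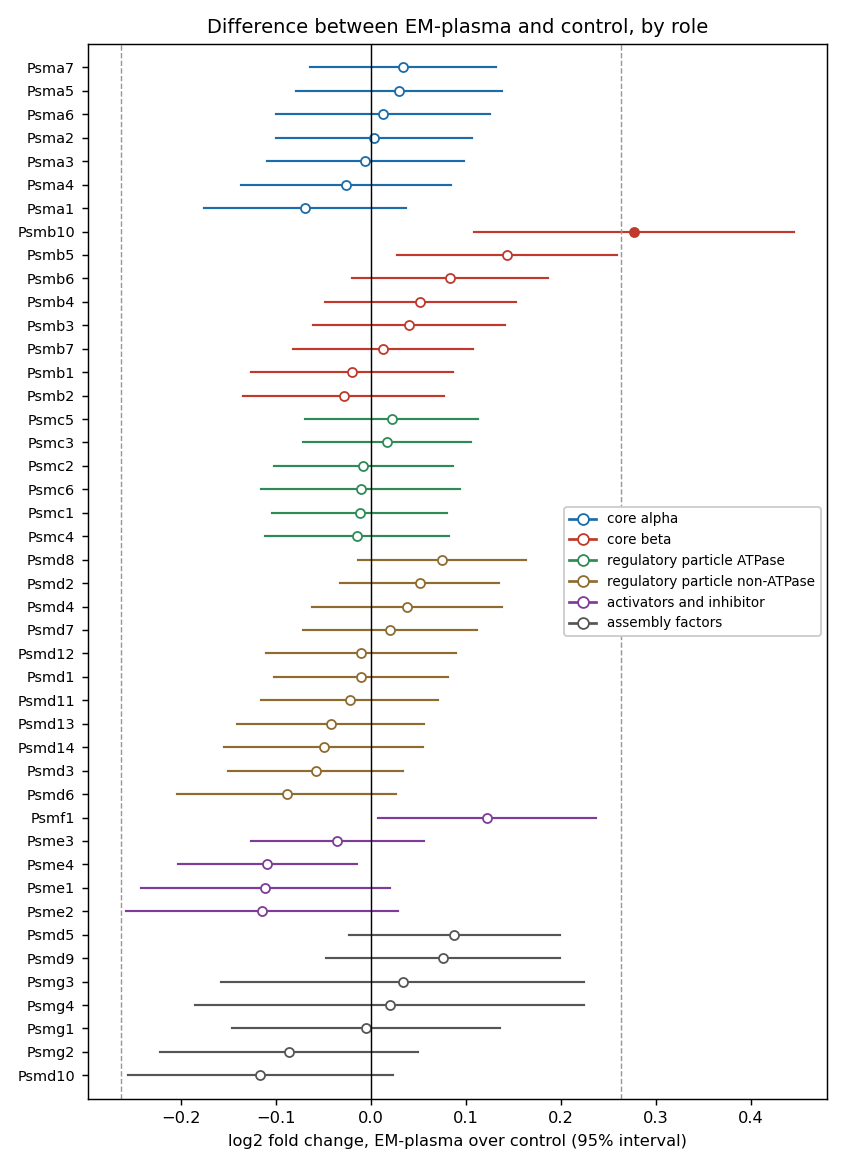
Log2 fold change of EM-plasma over control for each member, with its 95% interval, ordered within each role. Dashed lines stand at 1.2-fold lower and higher; the filled point, Psmb10 at 0.28, is the gene called, and its interval is the one that crosses a dashed line.

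Psmb10 encodes the immunoproteasome form of the trypsin-like cutting subunit, which takes the place of the product of Psmb7. It had 21.8 and 20.5 CPM in EM-plasma libraries and 18.2 and 16.6 CPM in control libraries, from 1014, 952, 898 and 786 reads. Both EM-plasma libraries were above both controls. Psmb10 (ENSMUSG00000031897, chromosome 8, 105935735 to 105938444 on GRCm38) rose 1.21-fold, at 21.1 ± 0.918 CPM against 17.4 ± 1.17 CPM (log2 fold change 0.28, SE 0.082, 95% interval 0.11 to 0.44, adjusted p = 0.0405). The log2 fold change stayed above 0 in all 12 alternative fits, between 0.21 and 0.34, but the call did not hold in all of them. It ended in DESeq2 (adjusted p = 0.128), without a filter on low counts (adjusted p = 0.321) and when any library was dropped. The adjusted p was 0.512 on dropping EM-plasma 1 and 0.177 on dropping EM-plasma 2, and 0.0661 and 0.277 on dropping the first and the second control. Over all alternatives the adjusted p ran from 0.0058 to 0.512.

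Per kilobase of the principal transcript, Psmb10 stood at 9.73% and 8.88% of the level of Psmb7 in EM-plasma libraries and at 8.24% and 7.26% in controls. The groups did not overlap in this ratio, which shares the reads of the called gene and was not tested. The immunoproteasome subunit genes outside the set were near 0: Psmb8 had 4 and 0 reads in EM-plasma libraries and 5 and 2 in controls, and Psmb9 had 2 and 3 against 2 and 5. Their sums over the 4 libraries were 11 and 12 reads, against 3650 for Psmb10. Psmb7 itself shares 405 exonic bases with Nek6 on the other strand, which had 34879 reads, and whether the counting used strand is not stated, so Psmb7 values are uncertain.

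The other core subunits did not pass the test. Psmb5 encodes the chymotrypsin-like cutting subunit, the main target of proteasome inhibitor drugs, and had 89.5 and 93.0 CPM in EM-plasma libraries and 86.4 and 78.8 CPM in controls. The EM-plasma libraries were above both controls, and control 2 was lower than control 1. Its log2 fold change was 0.14 (95% interval 0.027 to 0.26, unadjusted p = 0.0177, adjusted p = 0.141). With the replicate number as a block Psmb5 was called higher (adjusted p = 0.0295), but the numbers are not shown to pair the samples. That fit called 12.3% of all genes tested, against 6.21% in the main fit. In the other alternative fits of all libraries the adjusted p of Psmb5 lay between 0.112 and 0.483. With 1 library left out its log2 fold change ran from 0.080 to 0.21. Psmb6, the gene of the caspase-like cutting subunit, had 161 and 167 CPM in EM-plasma libraries against 161 and 148 CPM in controls. Here control 1 lay between the EM-plasma libraries, and the log2 fold change was 0.083 (95% interval -0.021 to 0.19). Psmb7 had 198 and 204 CPM in EM-plasma libraries against 196 and 202 CPM in controls, with overlapping groups. The non-cutting beta subunits Psmb1, Psmb2, Psmb3 and Psmb4, which complete the ring, had log2 fold changes of -0.020, -0.029, 0.040 and 0.052. Psmb2, the lowest of the beta genes, had 98.2 and 99.1 CPM in EM-plasma libraries and 100.1 and 101 CPM in controls. The groups were apart, and the 95% interval of the fold change lay inside 1.2-fold.

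The alpha subunits form the outer rings, whose gate controls entry to the barrel. Of 7 tested alpha genes 0 passed, and in 0 of them were the groups apart (2 and 2 values without overlap), which held for 16 of the 44 members and for 49.1% of all genes tested. Their log2 fold changes ran from -0.070 for Psma1 to 0.033 for Psma7. Psma1 had 131 and 139 CPM in EM-plasma libraries and 137 and 147 CPM in controls. Psma7 had 178 and 189 CPM in EM-plasma libraries and 181 and 177 CPM in controls. Summed over the ring, the alpha genes were at 956 ± 27.8 CPM in EM-plasma libraries and 958 ± 39.6 CPM in controls (SD, n = 2 each). Control 2 was above control 1 in 6 of the 7 alpha genes, with a median log2 ratio of 0.11 between the controls. This exceeded the difference between groups for any alpha gene, but that difference compares averages of 2 libraries, which vary less than single libraries. In the beta ring control 2 was above control 1 in 3 of 8 genes, and the summed level was 992 ± 19.3 CPM in EM-plasma libraries and 964 ± 6.99 CPM in controls.

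The 6 ATPases, Psmc1 to Psmc6, form the motor of the regulatory particle and had the smallest median absolute log2 fold change of the 6 roles, 0.013. Their log2 fold changes ran from -0.015 for Psmc4 to 0.022 for Psmc5, and the 95% intervals of all 6 lay inside 1.1-fold. Psmc5 had 248 and 254 CPM in EM-plasma libraries and 247 and 248 CPM in controls. Psmc4 had 194 and 191 CPM in EM-plasma libraries and 200 and 188 CPM in controls, so that its EM-plasma values lay between the controls. The summed level of the ATPase genes was 1414 ± 17.7 CPM in EM-plasma libraries and 1413 ± 14.9 CPM in controls (SD, n = 2 each). In Psmc3, which had the highest level per kilobase of the 6, the libraries read 318 and 326 CPM with EM-plasma and 321 and 316 CPM in controls.

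Of the 11 non-ATPase genes of the regulatory particle 0 passed. They include the scaffolds Psmd1 and Psmd2, the ubiquitin receptor Psmd4 and the deubiquitinase Psmd14, which removes the chain as the substrate enters. Log2 fold changes ran from -0.089 for Psmd6 to 0.075 for Psmd8, both genes of lid subunits. Psmd8 had 332 and 328 CPM in EM-plasma libraries and 319 and 308 CPM in controls, with the groups apart (95% interval of the log2 fold change -0.014 to 0.16, adjusted p = 0.357). Psmd6 had 90.3 and 98.2 CPM in EM-plasma libraries and 96.5 and 104 CPM in controls, with overlapping groups (95% interval -0.20 to 0.026, adjusted p = 0.412). Psmd2, the most abundant member in CPM, had 539 and 550 CPM in EM-plasma libraries against 532 and 518 CPM in controls. Psmd14 had 138 and 143 CPM in EM-plasma libraries against 140 and 152 CPM in controls.

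The activators and the inhibitor had the median log2 fold change farthest from 0 of the 6 roles, -0.11, with 0 of 5 genes past the test. Psme1 and Psme2 encode the interferon-inducible PA28 alpha and beta caps, Psme3 the nuclear PA28 gamma cap and Psme4 the PA200 cap. All 4 had log2 fold changes below 0, from -0.12 to -0.036, and in Psme1, Psme2 and Psme4 both EM-plasma libraries were below both controls. Groups were apart in 49.1% of all genes tested. Control 2 was above control 1 in all 4 cap genes. In the order Psme1 to Psme4, the log2 fold changes were -0.065, -0.097, 0.015 and -0.062 without control 2. They were -0.16, -0.13, -0.086 and -0.16 without control 1. Psme4 (chromosome 11, 30771726 to 30880361) had 254 and 266 CPM in EM-plasma libraries and 272 and 289 CPM in controls. Its log2 fold change was -0.11 (95% interval -0.20 to -0.015, unadjusted p = 0.0254, adjusted p = 0.174). Psme1 had 38.4 and 38.6 CPM in EM-plasma libraries and 40.3 and 42.8 CPM in controls (log2 fold change -0.11, adjusted p = 0.354). Psme2 had 26.2 and 25.9 CPM in EM-plasma libraries and 27.9 and 28.5 CPM in controls (log2 fold change -0.12, adjusted p = 0.389). Psme3, the cap gene with the highest level per kilobase, had 319.6 and 322 CPM in EM-plasma libraries and 318 and 339.5 CPM in controls, with overlapping groups (log2 fold change -0.036, adjusted p = 0.719). Its log2 fold change was above 0 in 1 of the 12 alternative fits, that without control 2.

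Psme1 and Psme2 kept their proportion to each other: the level per kilobase of Psme1 was 1.27 and 1.29 times that of Psme2 in EM-plasma libraries and 1.25 and 1.30 times in controls. The proteins of these genes assemble into a single mixed ring. Psmf1 encodes PI31, first described as a proteasome inhibitor, and went the other way from the caps, with 75.6 and 75.2 CPM in EM-plasma libraries and 70.5 and 68.0 CPM in controls. The groups were apart, and the log2 fold change was 0.12 (95% interval 0.0077 to 0.24, unadjusted p = 0.0374, adjusted p = 0.216).

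**Figure D3:**
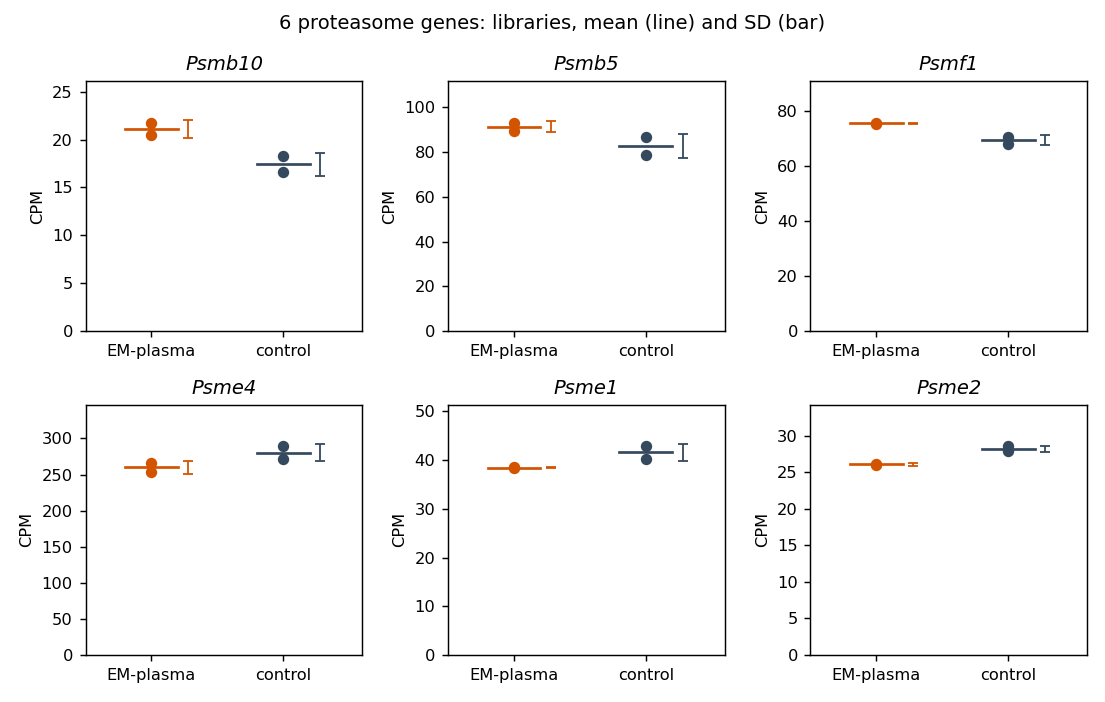
CPM in each library for the gene called (Psmb10), the 3 others with an unadjusted p below 0.05 (Psmb5, Psmf1, Psme4) and the PA28 genes Psme1 and Psme2, with EM-plasma left of control; lines are means and bars SD (n = 2 each). In these 6 genes the groups do not overlap, as in 16 of the 44 members and 49.1% of all genes tested. The mean differs by 1.21-fold at most. As 4 of the 6 were picked by their p, their lack of overlap is no separate evidence.

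The assembly factors bring subunits together and leave before the particle is complete: Psmg1 to Psmg4 chaperone the alpha ring, and Psmd5, Psmd9 and Psmd10 the base of the regulatory particle. Of the 7, 0 passed. Log2 fold changes ran from -0.12 for Psmd10 to 0.088 for Psmd5. Psmd10, which encodes gankyrin, had 30.0 and 31.2 CPM in EM-plasma libraries and 32.1 and 34.3 CPM in controls (95% interval of the log2 fold change -0.26 to 0.023, adjusted p = 0.364). Psmd5 had 85.2 and 87.5 CPM in EM-plasma libraries and 79.9 and 82.6 CPM in controls (95% interval -0.024 to 0.20, adjusted p = 0.401). The groups were apart in both genes, in opposite directions. Psmg1 had 31.6 and 34.8 CPM in EM-plasma libraries and 32.6 and 34.0 CPM in controls, with overlapping groups.

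**Figure D4:**
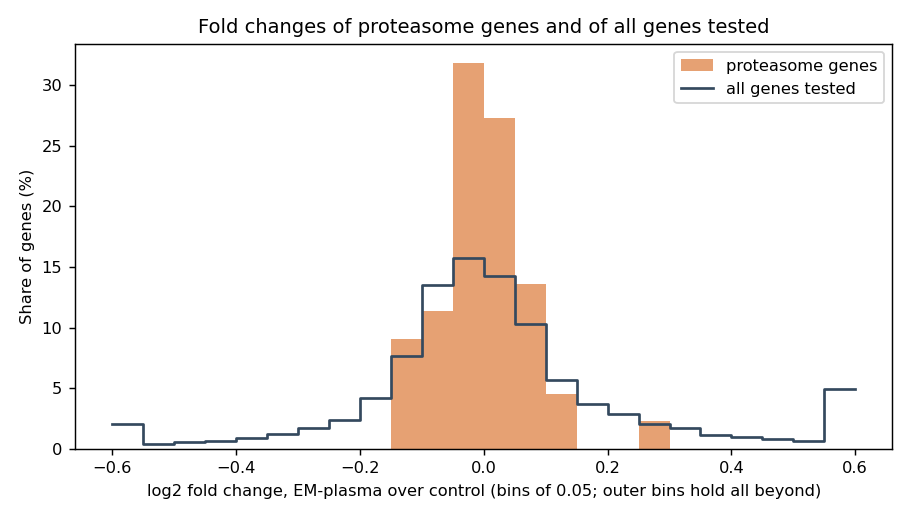
Share of genes in bins of 0.05 of the log2 fold change of EM-plasma over control, for the 44 proteasome genes (bars) and all 13664 genes tested (line); the outer bins hold everything beyond. Of the proteasome genes 31.8% lie between -0.05 and 0 and 27.3% between 0 and 0.05, against 15.7% and 14.3% of all genes tested. The genes were not matched for abundance, with a median level of 142 CPM for the members and 31.1 CPM for all genes tested.

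The differences between replicates were of the same order as those between groups. Over the members, the median absolute log2 difference was 0.041 between the EM-plasma libraries and 0.073 between the controls, against 0.064 and 0.10 over all genes tested. The median absolute log2 fold change between groups, 0.035, was below both member values. It compares averages of 2 libraries, which vary less than the single libraries behind the replicate values. A lower value is therefore partly built in. The members' median log2 fold change was 0.022 without EM-plasma 1, -0.011 without EM-plasma 2, -0.026 without control 1 and 0.029 without control 2, so its sign changed with the library left out. Other scalings shifted members and all genes alike: the members' median minus that of all genes tested was -0.0030 with TMM, -0.0031 with library totals alone and -0.0030 with upper-quartile factors.

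Per kilobase of transcript the members covered a 14.2-fold range, from 14.7 CPM per kilobase for Psmb10 to 209 CPM per kilobase for Psmd8. Subunits that occur in equal numbers in the particle did not have equal levels per kilobase. Within the alpha ring Psma7 was 4.47-fold above Psma2 in level per kilobase. Much of this came from the transcript lengths used, 914 bases for Psma7 and 2911 for Psma2. In CPM their means were 183 and 129 in EM-plasma libraries and 179 and 129 in controls. Within the beta ring without Psmb10 the highest, Psmb6 (798 bases), was 2.62-fold above the lowest, Psmb1 (1758 bases). Within the ATPase ring Psmc3 was 2.09-fold above Psmc6. Among the caps, Psme3 stood at 122 CPM per kilobase, Psme4 at 41.6, Psme1 at 36.0 and Psme2 at 28.2. The assembly factors ran from 15.2 to 31.8 CPM per kilobase, below all core and regulatory particle subunits other than Psmb10. These levels use 1 principal transcript a gene, so reads from longer or shorter isoforms shift them.

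**Figure D5:**
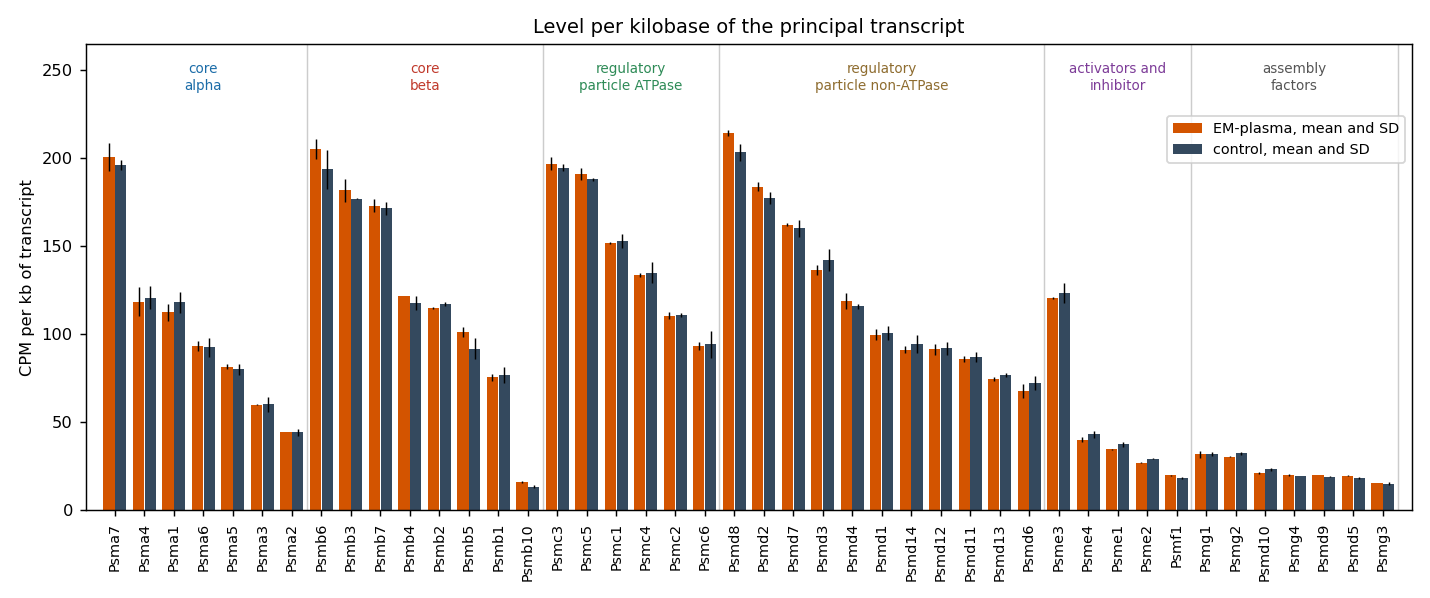
CPM per kilobase of the principal transcript for each member, by role and from high to low, as group means with SD (n = 2 each), EM-plasma left of control. Psmd8 is highest at 209 and Psmb10 lowest at 14.7 as means over the 4 libraries.

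The other pathway genes described are a list of proteasome-associated, NRF1-axis, substrate-delivery and ubiquitin genes. Of 33 tested, edgeR called 0 higher and 0 lower, beside 6.21% of all genes tested called in either direction. DESeq2 and limma voom likewise called 0 and 0 of the 33, beside 4.08% and 5.83% of all genes tested. In edgeR 7 of the 33 had an unadjusted p below 0.05, beside 19.5% of all genes tested. The median log2 fold change of the 33 was -0.0050. Nfe2l1, the gene of NRF1, had 331 and 331 CPM in EM-plasma libraries and 348 and 338 CPM in controls (log2 fold change -0.051, adjusted p = 0.56). Ddi2, the protease that activates NRF1, had 113 and 112 CPM in EM-plasma libraries and 116 and 114 CPM in controls (log2 fold change -0.028, adjusted p = 0.821). Pomp, the maturation factor of the core particle, had 97.7 and 104 CPM in EM-plasma libraries and 99.9 and 99.7 CPM in controls, with overlapping groups.

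Of the pathway genes, Nfe2l2 had the lowest log2 fold change. It encodes NRF2 and had 158 and 160 CPM in EM-plasma libraries and 173 and 176 CPM in controls (log2 fold change -0.14, adjusted p = 0.0812). The groups were apart, and the gene was called lower with the replicate number as a block (adjusted p = 0.0164, and from 0.0164 to 0.719 over the alternatives). The small MAF genes, whose products pair with NRF1 and NRF2, had log2 fold changes of 0.50 for Maff (adjusted p = 0.107), 0.14 for Mafg (adjusted p = 0.118) and 0.051 for Mafk. Mafg was called higher with the block (adjusted p = 0.0109, and up to 0.542 in the other fits of all 4 libraries). Its log2 fold change was 0.24 without control 1 and 0.055 without control 2. The block fit called 12.3% of all genes tested, against 6.21% in the main fit, and the replicate numbers are not shown to pair the samples.

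RefSeq promoters, from 250 bases before the start to 50 after it, were found for 37 of the 44 members. On either strand TGACNNNGC occurred in 6 of them (16.2%), against 14.0% of the 27025 genes in the table: Psmb5, Psmb6, Psmc6, Psmd9, Psmd12 and Psme4. In Psmb5 the match begins 47 bases before the RefSeq start and in Psmb6 9 bases before it. The log2 fold changes of these genes lay on both sides of 0, from -0.11 for Psme4 to 0.14 for Psmb5. CCAAT was in 12 members (32.4%, against 41.1% of all genes). The interferon-stimulated element, searched as GAAA, any 2 bases and GAAA, was in 5 members (13.5%, against 3.99% of all genes): Psmb3, Psmd4, Psmd9, Psme1 and Psmg4. The log2 fold changes of these 5 lay on both sides of 0, from -0.11 for Psme1 to 0.076 for Psmd9. The GAS element TTCNNNGAA was in 2 members (5.41%, against 9.55%). The window of Psmb10 held 0 matches to these 4 patterns. Matches of different patterns overlapped in 0 cases, and a match describes letters in a window, not a bound site.

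Reads could be shared with copies or overlapping genes for some members. At 95% identity over at least 100 bases, 9 members matched transcripts of 19 other genes, mostly processed pseudogenes, whose reads came to at most 1.87% of the member's own (Psmd11). This share holds only reads counted at the copies and does not bound the reads a member shared or lost. Exons of 9 members overlap a gene on the other strand, with appreciable reads in Nek6 beside Psmb7, Slc39a13 beside Psmc3 (8186 reads) and Sirt3 beside Psmd13 (1730 reads).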

How the data were processed

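The authors deposited whole-number counts per Ensembl gene, 1 column per library, and per-sample tables of a scaled signal, which equalled the deposited counts times 1 constant per library and served only to check the columns. GRCm38 is the build that the submitters' processing notes name, beside TopHat2 2.1.1, HTSeq, CASAVA and edgeR, with no roles; neither an annotation release nor a strand option for counting is stated there. Per the labels' protocols, the libraries were poly(A)-selected and stranded.

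Symbols, positions and transcript lengths came from GENCODE M21 (GRCm38), with symbols for 53360 of 53465 rows. filterByExpr kept 13664 genes. The test was edgeR 4.0.16's quasi-likelihood F test (R 4.3.3, TMM, group alone, two-sided, Benjamini-Hochberg over all genes tested, called below 0.05). The fit was also run on simulated counts with the same spread in every gene and group, which cannot show its error rate in these data. Intervals are 95% and have SE as absolute log2 fold change over the square root of F. They reflect the spread among these libraries, with each gene's variance drawn largely from other genes (25.46 of 27.46 degrees of freedom). Alternatives included DESeq2 1.42.0 and limma 3.58.1. In libraries of one group the chi-square per gene was 3.01 (EM-plasma) and 8.58 (control), above sampling noise. The members and lists were chosen with earlier results of these data known. Values per library are given for called members, for the highest and lowest log2 fold change and highest level per kilobase of each role, and for Nfe2l1, Ddi2 and Pomp; other genes named were chosen after their values were seen.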

Additional observations from a re-analysis of the deposited data

How the results depend on the processing

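The count of all genes called was 849 and became 557 with DESeq2's Wald test, 14 without a filter on low counts and 1683 with the replicate block, and it ran from 71 to 547 when 1 library was left out. Members called higher numbered 1, and 0 with DESeq2, 0 without a filter and 2 with the block (Psmb10 and Psmb5); with 1 library left out the count was 0 in every fit. Members called lower numbered 0 in all 12 alternatives. The members' median log2 fold change ran from -0.026 to 0.029 when 1 library was left out. A lone library was assumed to vary like the other group. Fitted with DESeq2 size factors, library totals, upper-quartile factors, the newer dispersion or limma voom, the members called were the same. The cause of these shifts was not tested. Deviations of same-numbered libraries had a correlation of 0.026 over genes, so the numbers are not shown to pair the samples. Of 648 single-gene values under the alternatives, 6 lost a call, all of Psmb10, and 5 gained one (Mafg in 2 fits, and Nfe2l2, Psmb5 and Ubqln4 in 1 each).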
